A study of Picea abies with 24 samples.

Results

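Line A78:4, an embryogenic culture of Norway spruce (Picea abies) that carries the asCCR construct, was compared on the same slides with 95:88:22, the untransformed line of the study. The members are the 4 arrays, of 24 in the series, whose titles pair these lines. They set 2 RNA extracts of A78:4 against 2 of 95:88:22. The series compared 6 lines on two-colour cDNA arrays: 3 asCCR lines (A78:3, A78:4 and A78:5), 2 transformed control lines (G88:5 and G88:9) and the untransformed line, whose name the series text writes with another middle number. Tissue of each line was taken as 2 biological replicates, each from 3 Petri dishes, on day 14 after subculture. The labels name neither the promoter nor the parent line of the construct, and 95:88:22 carries no construct at all. Transformation itself and the asCCR construct therefore cannot be told apart in this pairing, and A78:4 is a single line.

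CCR, cinnamoyl-CoA reductase, converts hydroxycinnamoyl-CoA thioesters to the corresponding aldehydes. It thereby commits phenylpropanoid metabolism to monolignols, the building units of lignin, and conifer lignin is built mainly from coniferyl alcohol. Embryogenic cultures of spruce are proliferating masses of early somatic embryos, in which embryonal cells and elongated suspensor cells grow side by side. By its title, the series concerns the effect of lower CCR expression on cell walls in such cultures. A pairing of an asCCR line with the untransformed line asks which transcripts differ between them.

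Each array carried 2688 features, every feature spotted in duplicate. A feature is written F with the numbers of its 2 spots, because the files used here pair no feature with a gene or a sequence. For the same reason, CCR transcript, with which the line labels could be checked, markers of embryogenic tissue and lists of lignin or cell wall genes are not analysed here. Values are log2 ratios of A78:4 over 95:88:22 after normalization within each print block, so a shift shared by all features would not be seen. In each replicate the pair of extracts was hybridised on 2 arrays with the dyes exchanged, and the mean of these arrays is called the replicate ratio. A change that follows the dye and not the line cancels in it. The test was limma on the 2 replicate ratios against 0, with Benjamini-Hochberg adjustment over all 2688 features and an adjusted p under 0.05 as the threshold. Nothing in the labels says how far the replicates were grown apart, so p-values measure only the spread between these extracts.

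The 4 arrays were of like brightness. Median spot intensity was 605 to 866 in Cy5 and 725 to 970 in Cy3, against a median recorded background of at most 74.1. All 5376 spots of each array cleared the recorded background by 2 SDs in either channel. At most 16 spots of an array were marked as ignored, and 1 feature was saturated. Duplicate spots had a Pearson r of 0.621 and 0.678 across features on the arrays with A78:4 in Cy5 and of 0.421 and 0.376 on those with A78:4 in Cy3. The pair with A78:4 in Cy3 was thus the noisier.

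The measured ratios of A78:4 over 95:88:22 were mostly small. The mean ratio over both replicates ran from -0.60 to 0.79 on the log2 scale, with an SD of 0.0967 over features and a median of 0.00477. No feature was called by limma (0 of 2688, or 0%), and the smallest adjusted p was 0.153, shared by 2 features. Without adjustment, 356 features, or 13.2%, had a limma p under 0.05, where evenly spread p-values would give 134.4. This excess was lost with some error terms and kept with others. With the spread pooled over 3 pairings 60 features were left, and by least squares over both loops 9. Single-channel values gave 59 with no replicate block and 354 with it. There were 358 with the 4 arrays taken as independent and 335 with a spread trended with intensity. Of the 356 features, 179 were higher and 177 lower in A78:4, and 87 and 100 of them had the same sign on all 4 arrays. Features were called in 8 of the 18 alternatives tested. Among these, 28 features, 14 in each direction, were called when the dimmest of 4 equal intensity classes was left out, and 22, 20 higher and 2 lower, when the arrays were centred on their medians without loess.

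Few ratios were large. The mean ratio exceeded 0.5 in size, a 1.41-fold change, in 8 features (0.298%), 6 higher and 2 lower in A78:4, and in 0 features did it exceed 1. In replicate 1 there were 17 features beyond 0.5, 14 of them higher, and in replicate 2 there were 3, all higher. A single feature (0.0372%) exceeded 0.5 in the same direction in both. It was F4343_4455, named here after its values were seen, with replicate ratios of 0.73 and 0.55 and a limma adjusted p of 0.153. On the arrays with A78:4 in Cy5 its ratio was 0.99 and 1.09, but with the dyes exchanged it was 0.47 and 0.01. With a limit of 0.25, 9 features were higher and 9 lower in both replicates, and 0 went in opposite directions.

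With the error term of the main fit, the precision was enough to bound most ratios as measured, within the limits of 2 extracts per line. The 95% confidence interval of the mean ratio had a median half-width of 0.12. For 2687 features it stayed inside a 2-fold change up or down, and for 2665, or 99.1%, within 0.5 on the log2 scale. The exception at the 2-fold limit was F4550_4662. The intervals hold for each feature alone, and the number of arrays limits them. They also rest on that error term and on ratios without background subtraction. No intervals were computed with the error terms that left fewer small p-values.

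The replicate ratios of the 2 pairs of extracts went together across features. Their Pearson r was 0.404 and their Spearman rho 0.37 over 2688 features, which share arrays and are no independent replicates. The sign was the same in both replicates in 1662 features, or 61.8%. The spread of the ratios was 0.128 (SD over features) in replicate 1 and 0.102 in replicate 2. The scatter between duplicate spots alone would give 0.0846 and 0.0708, which is 43.9% and 47.7% of the variance.

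**Figure D1:**
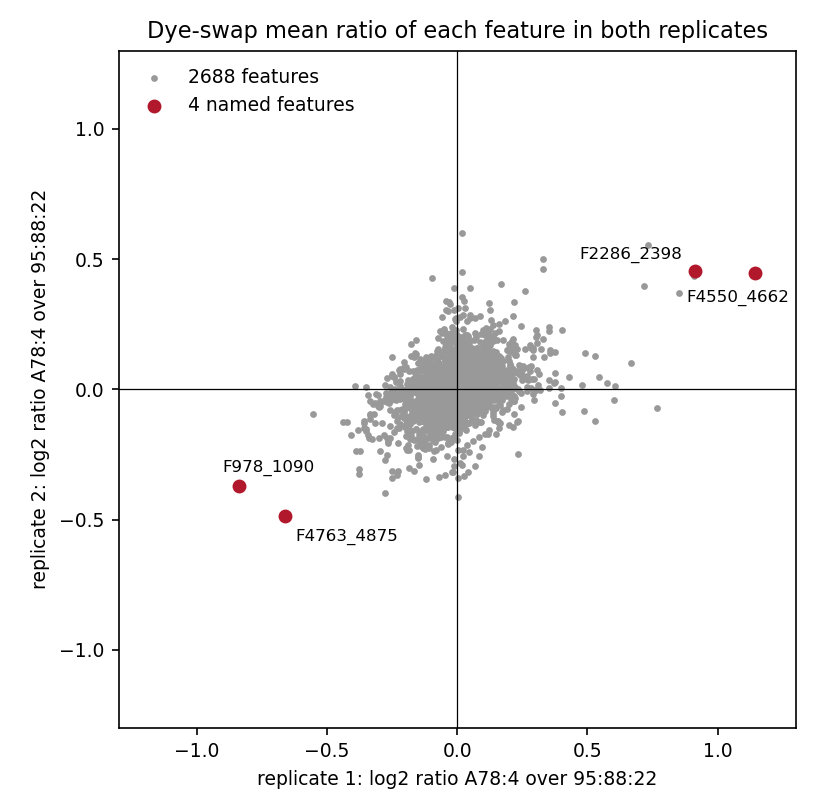
Each point is 1 of 2688 features, with the log2 ratio of A78:4 over 95:88:22 in replicate 1 on the x axis and in replicate 2 on the y axis, each the mean of 2 arrays with the dyes exchanged. Most points lie near 0, the cloud leans along the diagonal (r 0.404), and the 4 named features, in red, lie at its ends.

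The features described singly are the 2 with the highest and the 2 with the lowest mean ratio among those with an unadjusted p under 0.05 and the same sign on all 4 arrays. Their order was thus chosen on these ratios, and since none passed the test they are given as values. Their brightness differed widely, with F2286_2398 brighter than 99.6% of features, F4550_4662 than 92.3%, F978_1090 than 82.4% and F4763_4875 than 52%.

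F4550_4662 had log2 ratios of 0.79 and 1.49 in replicate 1, with A78:4 in Cy5 and in Cy3, and of 0.39 and 0.50 in replicate 2. All 4 arrays were above 0, and both arrays of replicate 1 lay above both of replicate 2. The replicate ratios were 1.14 and 0.45, a mean of 0.79 ± 0.49 (SD, n = 2; SE 0.16), or 1.73-fold higher in A78:4, with a limma adjusted p of 0.243. On the array with the largest ratio its raw intensity was 9500 in A78:4 against 2290 in 95:88:22. On the array with the smallest it was 3910 against 3740.

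F2286_2398 had ratios of 0.36 and 1.47 in replicate 1, again with A78:4 in Cy5 and then in Cy3, and of 0.19 and 0.72 in replicate 2. Its ratio followed the dye as well as the line: both arrays with A78:4 in Cy3 lay above both with A78:4 in Cy5. The replicate ratios were 0.91 and 0.45, a mean of 0.68 ± 0.32 (SD, n = 2; SE 0.11), with a limma adjusted p of 0.216. With A78:4 in Cy5 alone the mean was 0.28, and with A78:4 in Cy3 alone it was 1.09. The spot was very bright, between 13400 and 41200 in raw intensity, and not saturated.

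Among the lower features, F978_1090 had ratios of -0.84 and -0.83 in replicate 1 and of -0.52 and -0.22 in replicate 2, in the same order of dyes. Both arrays of replicate 1 lay below both of replicate 2. Its duplicate spots stood far apart on the array of replicate 1 with A78:4 in Cy3, at -1.17 and -0.50. The mean of the replicate ratios was -0.60 ± 0.33 (SD, n = 2; SE 0.11), with a limma adjusted p of 0.216.

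F4763_4875 was the most even of the 4, with ratios of -0.48 and -0.84 in replicate 1 and of -0.47 and -0.51 in replicate 2. The replicate ratios were -0.66 and -0.49, a mean of -0.57 ± 0.12 (SD, n = 2; SE 0.06), and the limma adjusted p was 0.153. This spot was of middling brightness, 620 to 827 in A78:4 and 872 to 1150 in 95:88:22. The ratio was -0.88 when a background correction with normexp was applied. Adjusted p ran from 0.000125 to 1 over 18 alternatives for F4763_4875, which was called in 7 of them. F2286_2398 was called in 5 and the other two in 4 each.

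**Figure D2:**
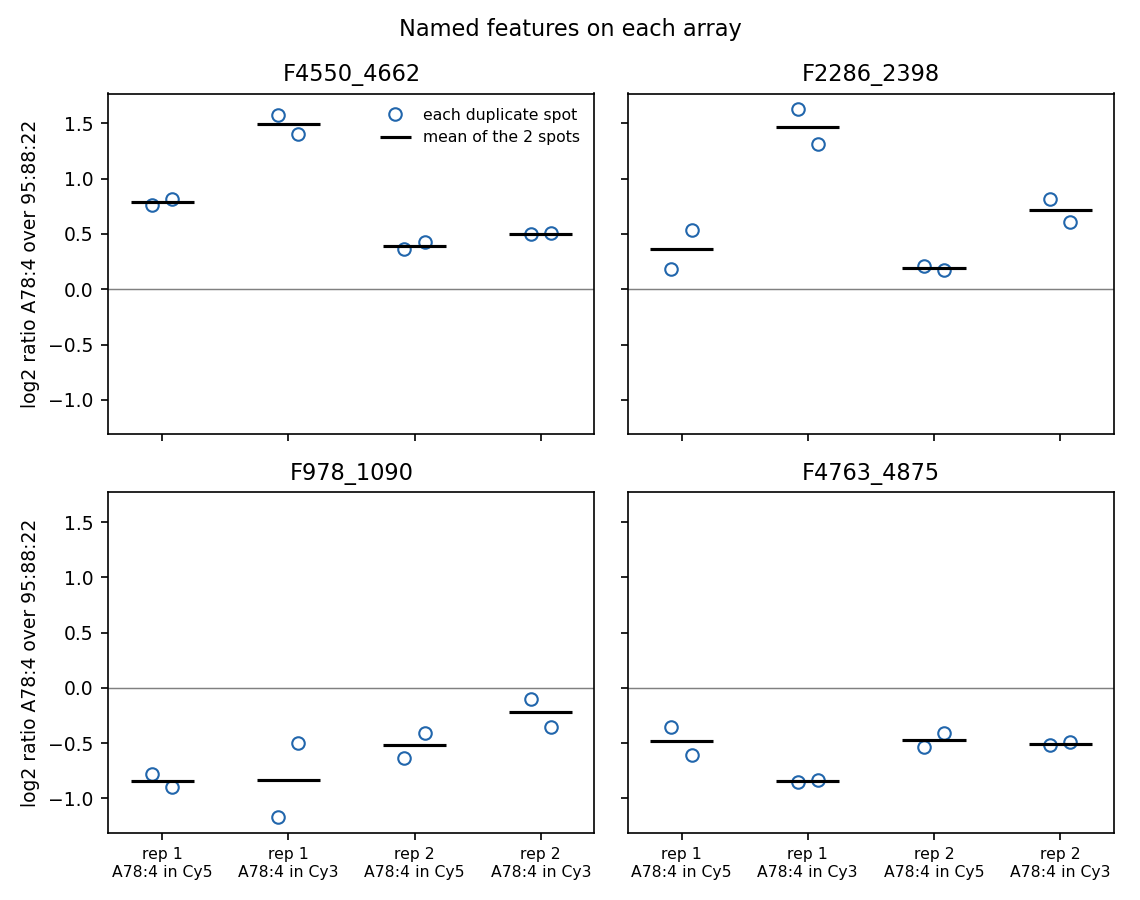
The log2 ratio of A78:4 over 95:88:22 is shown on each of the 4 arrays for the 4 named features, with circles for the 2 duplicate spots and bars for their mean. All spots of F4550_4662 and F2286_2398 lie above 0 and all spots of F978_1090 and F4763_4875 below it, and the ratio of F2286_2398 is larger on both arrays with A78:4 in Cy3.

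The dye left a larger mark on single arrays than the line. When every array was turned to read A78:4 over 95:88:22, arrays of the same dye orientation had an r across features of 0.634 with A78:4 in Cy5 and of 0.429 with A78:4 in Cy3. Arrays with the dyes exchanged had negative r, -0.199 and -0.261 for the same extracts and -0.178 and -0.221 across replicates. That each deposited column is Cy5 over Cy3 was settled from the scanner values of its array. Which line was in which dye rests on the array titles and was not tested. The dye term, the part of a feature's ratio that stayed with the dye when the lines were exchanged, had an SD of 0.154 and 0.134 in the 2 replicates, above the 0.128 and 0.102 of the line ratios. It had an r of 0.571 between replicates, and limma called 4 features (0.149%) for it.

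The dyes are balanced in the replicate ratios. In replicates 1 and 2 the ratio had an r of -0.333 and -0.0989 with the dye term of its own arrays, which is computed from the same 2 arrays. With the dye term of the other replicate the r was -0.0141 and -0.0101, and it was 0.0926 and 0.189 with the mean dye pattern of the 8 arrays of the pairings A78:3 with G88:5 and A78:5 with G88:9. With that pattern regressed out, the r between replicates was 0.396, and limma called 12 features, 9 higher and 3 lower, the 4 named features among them. That alternative was chosen after the data were seen. The same sign on all 4 arrays, which a dye term works against, was found in 223 features higher and 231 lower in A78:4. On all 8 spots it was found in 44 higher features (1.64%) and 61 lower ones (2.27%).

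**Figure D3:**
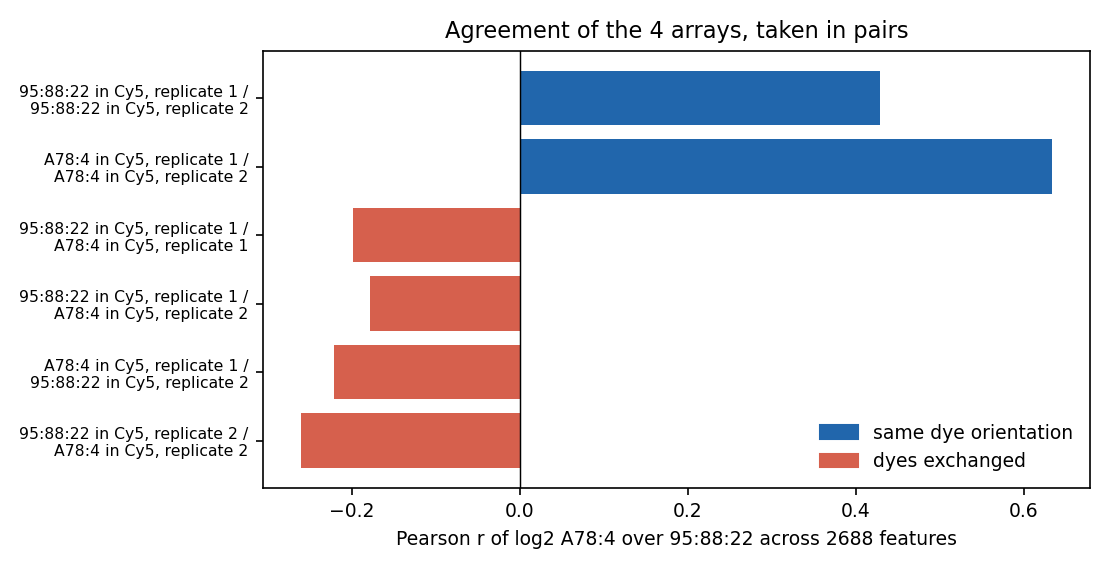
Bars give the Pearson r across 2688 features between the log2 ratios of A78:4 over 95:88:22 on 2 of the 4 arrays, for each of the 6 pairs of arrays. The 2 pairs with the same dye orientation (blue) have r of 0.429 and 0.634, and the 4 pairs with exchanged dyes (red) lie between -0.261 and -0.178.

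Repeatability followed brightness. With features put in 4 classes of 672 by mean intensity, from dim to bright, the r between replicate ratios was 0.0742, 0.303, 0.447 and 0.576. The share of features with an unadjusted p under 0.05 was 2.08%, 13.1%, 21.4% and 16.4% in the same order. All 8 features with a mean ratio beyond 0.5 lay in the brighter classes, 1 in the third and 7 in the fourth. The SD of the mean ratio was 0.0593 in the dimmest class and 0.117 in the brightest. Without the dimmest class limma called 28 features, all with the same sign as before and all with an unadjusted p under 0.05 over the full table. They had a median size of 0.32, from 0.26 to 0.79, and the 4 named features were among them with adjusted p of 0.00589 for F4550_4662, 0.00442 for F2286_2398, 0.00589 for F978_1090 and 0.00117 for F4763_4875. In that fit 2016 features were tested, and the prior degrees of freedom that limma estimated rose from 4.38 to 10.1.

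**Figure D4:**
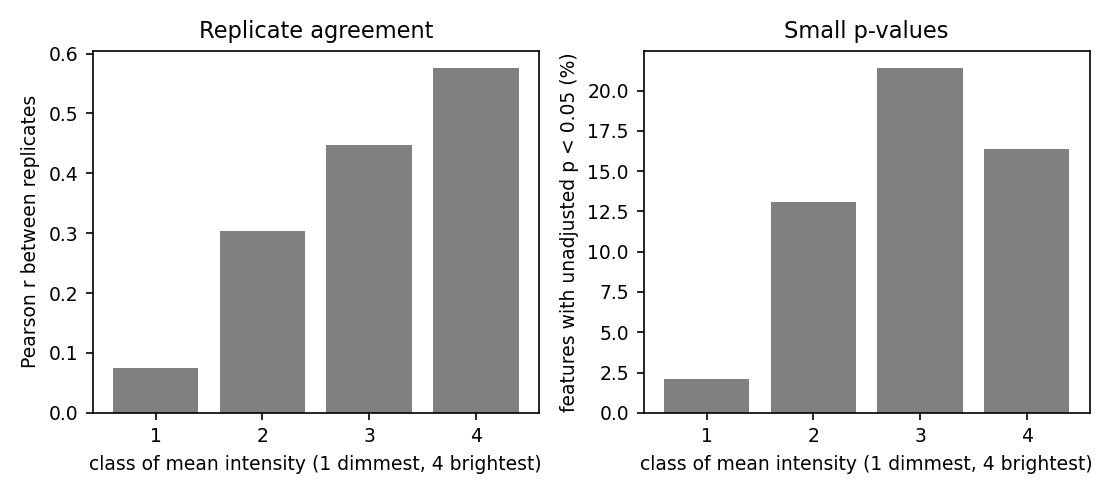
Features are grouped in 4 equal classes of mean log2 intensity over the 4 arrays, from dimmest (1) to brightest (4); the left panel gives the Pearson r between the replicate ratios and the right panel the percentage of features with an unadjusted limma p under 0.05. The r rises from 0.0742 to 0.576, while the percentage goes from 2.08 to 21.4 in the third class and 16.4 in the fourth.

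Position on the slide also moved with the ratios. Features next to each other in a row of a print block had an r of 0.243 in replicate 1 and 0.244 in replicate 2 (2496 pairs), and neighbours in a column 0.144 and 0.187. The part of such a pattern in the ratios was not tested feature by feature. With each feature set against its neighbours, the r between replicates was 0.515, above the 0.404 of the ratios themselves. Within each of the 24 pairs of print blocks the r between replicates was above 0, from 0.225 to 0.617, and 6 to 22 features per pair of blocks had an unadjusted p under 0.05.

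The ratios of A78:4 over 95:88:22 were smaller than those of A78:3 over G88:5 and of A78:5 over G88:9. These pairings share no extract with it or with each other, and both were treated alike. The pairing A78:3 over G88:9 shares no extract with A78:4 over 95:88:22 either. It shares extracts with both of the others, however, and its spread was not compared. The SD of the replicate ratios was 0.128 and 0.102 for A78:4 over 95:88:22, 0.224 and 0.202 for A78:3 over G88:5 and 0.253 and 0.242 for A78:5 over G88:9. Beyond 0.5 in both replicates there was 1 feature for A78:4 against 39 and 5. The r between replicates was 0.404 for A78:4, between 0.672 for A78:3 and 0.278 for A78:5. At each of 6 percentiles compared the sizes were lowest for A78:4, while the order of A78:3 and A78:5 varied. At the 95th percentile they were 0.251 and 0.208 for A78:4, 0.463 and 0.385 for A78:3, and 0.528 and 0.494 for A78:5. These differences in spread are descriptions of 6 replicate ratios. The number that ends each array title, whose meaning the labels do not give, differed between the arrays of A78:3 with G88:5 and those of A78:4 with 95:88:22. Whatever goes with that number cannot be told apart from the pairing there. The arrays of A78:5 with G88:9 of replicate 2 had numbers in the range of the A78:4 arrays, and the SD of 0.242 is theirs. Whether the spread goes with the title number was not tested.

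**Figure D5:**
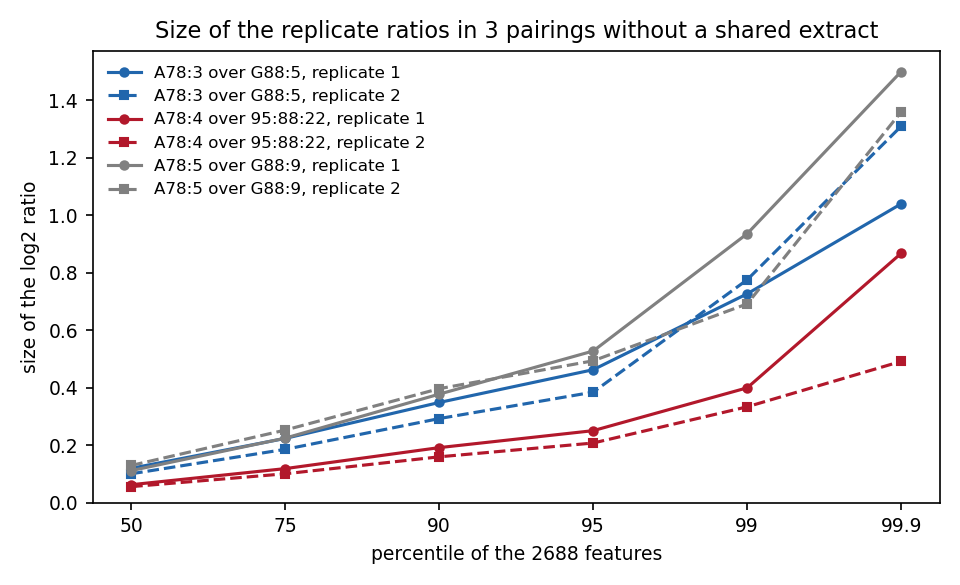
The size of the log2 ratio is plotted at 6 percentiles of the 2688 features for each replicate (solid and dashed lines) of 3 pairings that share no extract. Both lines of A78:4 over 95:88:22 (red) lie below those of A78:3 over G88:5 (blue) and A78:5 over G88:9 (grey) at every percentile shown, at 0.251 and 0.208 against 0.385 to 0.528 at the 95th.

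The difference between the pairings was also tested feature by feature. Against A78:3 over G88:5, limma called 0 features (smallest adjusted p 0.15), and 256 features, or 9.52%, had an unadjusted p under 0.05. Against A78:5 over G88:9 it called 0 (smallest adjusted p 0.238), and 364, or 13.5%, had an unadjusted p under 0.05. The common spread of that fit includes the replicates of A78:5 over G88:9, the pairing with the lowest r between replicates. Without either replicate of A78:5 over G88:9, 37 features were called against A78:3 over G88:5. In all of them the ratio of A78:4 over 95:88:22 was the smaller in size, with a median of 0.10 against 0.59. The same sign in both pairings was found in 18. These features were picked for their difference from a pairing with a larger spread, so the smaller size is no separate result. Against A78:5 over G88:9 itself 298 and 139 features were called without its replicates 1 and 2. The remaining replicate is then assumed to vary like the other pairings.

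Across features, the replicate ratios of A78:4 over 95:88:22 had an r of 0.348 and 0.307 (replicate 1) and 0.266 and 0.268 (replicate 2) with those of A78:3 over G88:5. With the replicate ratios of A78:5 over G88:9 the r was 0.0837 and -0.277, and 0.142 and -0.114. The signs with A78:5 thus differed between its own replicates. These values are across features on arrays of the same design and dye layout, which share any pattern tied to spots.

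Of the named features, the lower ones were also low in A78:3 over G88:5. F978_1090 had -0.96 and -1.16 there, and 0.43 and 0.28 in A78:5 over G88:9. F4763_4875 had -1.03 and -1.45, and 0.79 and 0.40. Both features were thus below 0 in both replicates of A78:3 over G88:5 and of A78:4 over 95:88:22. In A78:5 over G88:9 both were above 0 in both replicates. These signs belong to the pairings and not to the asCCR lines alone. In A78:3 over G88:9, F978_1090 had -0.04 and -0.33, and F4763_4875 had 0.38 and -0.17. On arrays that share extracts with the pairing studied here, F4763_4875 had -1.37 in A78:4 over G88:5 of replicate 2 and -0.19 and -0.40 in A78:5 over 95:88:22. F978_1090 had -0.92 in the former and -0.23 and -0.50 in the latter.

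The higher features took both signs across pairings. F4550_4662 had 0.43 and 0.53 in A78:3 over G88:5 and -0.29 and -1.56 in A78:5 over G88:9. F2286_2398 had -0.09 and 0.41 in the former and 0.10 and -1.32 in the latter. In A78:3 over G88:9, F4550_4662 had 0.61 and -0.15, and F2286_2398 had 0.19 and -0.18. In A78:4 over G88:5 of replicate 2, which shares the A78:4 extract, F4550_4662 stood at 0.04 and F2286_2398 at -0.02. In A78:5 over 95:88:22, which shares the 95:88:22 extracts, F4550_4662 had 0.29 and -0.38, and F2286_2398 had 0.98 and -0.23. In replicate 1, F2286_2398 was thus about as high in A78:5 over 95:88:22 as its 0.91 in A78:4 over 95:88:22. The limma adjusted p of the difference from A78:3 over G88:5 was between 0.311 and 0.858 for the 4 named features, and that of the difference from A78:5 over G88:9 between 0.238 and 0.285.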

How the data were processed

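The deposited scanner files hold raw spot intensity in Cy5 and Cy3, per the file headers. Print-tip loess was applied slide by slide by the authors, with LCB Data Warehouse 1.2.10, and a mixed model tested the genes, per the labels. The deposited series matrix holds log2 ratios. For 23 arrays these differed by at most 0.00337 from log2 Cy5 over Cy3 recomputed from the array's own scanner file by print-tip loess without background subtraction, which settled scale and direction. Column medians of the 4 arrays were -0.00344 to 0.00142. The scanner file identical to that of another array was not used and belongs to none of the 12 arrays of the 3 pairings compared.

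Spots n and n+112 hold the same feature: their mean log2 intensity had an r of 0.987 over 2688 pairs, against at most 0.352 for neighbouring blocks that are no pair. Ratios were turned to A78:4 over 95:88:22, then averaged over duplicate spots and over the dye swap, which leaves n = 2. limma 3.58.1 under R 4.3.3 fitted the 2 replicate ratios (lmFit, eBayes), and a second fit of 3 pairings gave the differences between them, with 3 residual degrees of freedom. The procedure was also run on simulated replicate ratios, drawn independently with a spread fitted to these data. They held no dye term and no pattern of position, so they cannot show how the fit behaves with these. The members, the rule for named features and the alternatives were chosen with earlier results of these data known. The rule took the 2 highest and 2 lowest mean ratios among called features, or otherwise among those with an unadjusted p under 0.05 and the same sign on all 4 arrays. Alternatives covered the source of the ratios, background correction (normexp, offset 50), normalization within and between arrays, duplicate spots, dye orientation, the error term, both loops, dim and ignored spots, an intensity trend, the replicate block and leaving out replicates.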

Additional observations from a re-analysis of the deposited data

How the results depend on the processing

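No mean ratio of a named feature changed sign under any alternative run. These features were chosen for the same sign on all 4 arrays, so a single dye orientation or replicate could not reverse it. A change of the error term alone leaves the mean as it is. For A78:4 over 95:88:22, 0 features were called as reported, against 28 without the dimmest intensity class, 22 with median centring only, 12 with the dye pattern of other pairings regressed out (chosen after seeing the data), 5 with a single loess per array, 3 with normexp, 2 with arrays scaled to the same spread, 1 with a trended spread and 249 on the arrays with A78:4 in Cy5 alone. Of those 249, 188 had the opposite sign on the arrays with A78:4 in Cy3. The cause of the calls in the other alternatives was not tested. Without the dimmest class fewer features were tested, and the prior degrees of freedom that limma estimated rose from 4.38 to 10.1. The unadjusted limma p also fell there, from 0.000114 to 1.16e-06 for F4763_4875. The 356 features at an unadjusted p under 0.05 became 215 with the second spot of each pair, 725 with A78:4 in Cy5 alone, 60 with the spread pooled over 3 pairings and 9 by least squares over both loops. The replicate numbers name extracts that share slides, so single-channel values cannot show whether the numbers otherwise paired the extracts. With the replicate block 354 features had an unadjusted p under 0.05 and 0 were called, and with no replicate block 59 and 0. The 1 feature beyond 0.5 in both replicates became 4 with normexp, with a single loess or with first spots, 2 with median centring, 12 and 10 with A78:4 in Cy5 or Cy3 alone, and 3 with the dye pattern regressed out. The r of 0.404 between replicates became 0.234 with second spots and 0.634 with A78:4 in Cy5 alone. Leaving out replicates gave 0 to 37 called features for the difference from A78:3 over G88:5, which was 4 with a single loess, and 0 to 298 for that from A78:5 over G88:9. Depth is not at issue in arrays. All spots lay above the recorded background, so that filter left out no feature.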
